A study of Drosophila melanogaster with 24 samples.

Results

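The first 4.5 Mb of chromosome arm 3R of Drosophila melanogaster, counted from the centromere side of the arm in genome build dm6, are described here through the places where chromatin proteins were found by chromatin immunoprecipitation with sequencing (ChIP-seq). A peak, an interval of enriched ChIP signal, was a member where it lay on 3R and ended below position 4500000. This gave 2160 peaks, 8.39% of the 25738 peaks that 6 deposited lists hold on the 6 chromosome arms. The cells were Kc167, a single line of embryonic origin. In 1 treatment, cells were transfected with 5 ug of double-stranded RNA (dsRNA) against Clamp and kept for 6 days; the other cells are labelled mock, and the labels say no more of them. The dsRNA cells gave 2 CLAMP ChIP libraries with the antibody called clamp-abcam and 2 inputs. The mock cells gave 2 libraries each for CLAMP with clamp-abcam, CLAMP with an antibody called clamp, Mod(mdg4)2.2, Su(Hw) and CP190, and 10 inputs. The clamp-abcam antibody is called the second antibody below and clamp the first. Each list was made from the libraries of its group together, and no replicate error can be given. The intervals are 95% intervals for counting error only (exact Poisson for densities, Wilson for shares), and no difference was tested. The depth of the libraries is unknown, and a missing peak means only that none passed the authors' threshold. How reads from repeats were treated is unknown too, and it can affect densities, widths and overlaps in repeat-rich sequence such as this.

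Pericentric heterochromatin is the compact, repeat-rich chromatin that flanks a centromere. In Drosophila it carries few genes, and some of these are very long because of introns filled with repeats. CLAMP is a zinc-finger protein that binds GA-rich DNA and takes part in X-chromosome dosage compensation. Su(Hw) is the DNA-binding subunit of the gypsy insulator complex, and Mod(mdg4)2.2 and CP190 are its partners. CP190 also lies at many active promoters without Su(Hw).

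The annotation fits a gene-poor stretch followed by one with more genes, and the change lies beyond Parp1, not at its end. Of the 87 annotated genes that start in the 4.5 Mb, 10 lie in the 3.59 Mb up to the end of Parp1 (2.79 genes per Mb), and 77 in the remaining 0.913 Mb (84.3 per Mb). All arms together have 132 genes per Mb. Beyond Parp1 the genes crowded towards the 4.5 Mb limit, so 84.3 per Mb is an average over unlike parts. For example, no gene lies between the end of CG41099 at 3868401 and the start of CG42402 at 4077939. The label pericentric therefore describes the stretch up to Parp1 better than the gene-rich end of the 0.913 Mb beyond it. Myo81F, a gene for a protein of the myosin heavy chain family, spans 1965857 bases of 3R, from 567076 to 2532932. Pzl, which encodes a relative of the mechanosensitive channel Piezo, spans 709421 bases from 2554162 to 3263582. These 2 genes hold 59.5% of the 4.5 Mb. Parp1, the gene of poly(ADP-ribose) polymerase, runs from 3461351 to 3587054. The gene spok, which encodes a cytochrome P450 of ecdysone synthesis, lies between Pzl and Parp1.

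The lists filled these 4.5 Mb very unequally. Among CLAMP lists, the second antibody had 992 peaks after Clamp dsRNA and 16 in mock cells, and the first antibody had 680 in mock cells. Among insulator proteins, Mod(mdg4)2.2 had 349, Su(Hw) 76 and CP190 47, all in mock cells. These peaks are 60.0% of the dsRNA list on the arms, 0.414% of the mock list of the second antibody and 12.7% of that of the first antibody. They are 20.2% of the Mod(mdg4)2.2 list, 2.06% of the Su(Hw) list and 0.498% of the CP190 list. The dsRNA list had most of its arm peaks here, and CP190 under 1%.

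Density in these 4.5 Mb, set against all other arm sequence, was higher for 3 lists and lower for 3. The dsRNA list had 220 peaks per Mb here (interval 207 to 235) and 5.11 per Mb elsewhere (4.73 to 5.52). The first CLAMP antibody had 151 per Mb (140 to 163) and 36.3 elsewhere (35.2 to 37.3). Mod(mdg4)2.2 had 77.6 per Mb (69.6 to 86.1) and 10.7 elsewhere (10.1 to 11.3). In these lists the intervals of the stretch and of the other sequence lie far apart. The second CLAMP antibody in mock cells was low, with 3.56 per Mb (2.03 to 5.77) against 29.7 elsewhere (28.8 to 30.7). Su(Hw) had 16.9 per Mb (13.3 to 21.1) against 27.9 (27.0 to 28.8), and CP190 had 10.4 (7.67 to 13.9) against 72.6 (71.1 to 74.1). Peaks of the dsRNA list covered 10.3% of the bases here, those of the first antibody 12.9%, those of Mod(mdg4)2.2 4.76%, and those of each other list under 1%.

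The dsRNA list, the first antibody and Mod(mdg4)2.2 were less dense in the 2 other chromosome parts examined. The last 4.5 Mb of 3L, on the other side of the same centromere, held 12.4 dsRNA peaks per Mb, 9.11 of the first antibody and 3.11 of Mod(mdg4)2.2. The last 4.5 Mb of X held 26.4, 47.8 and 25.8 per Mb of the same lists. Su(Hw) had 3.11 per Mb at 3L and 23.6 at X. CP190 had 9.11 per Mb at 3L, near its 10.4 per Mb on 3R, and 52.7 at X. The second antibody in mock cells had 3.78 per Mb at 3L and 26.2 at X.

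**Figure D1:**
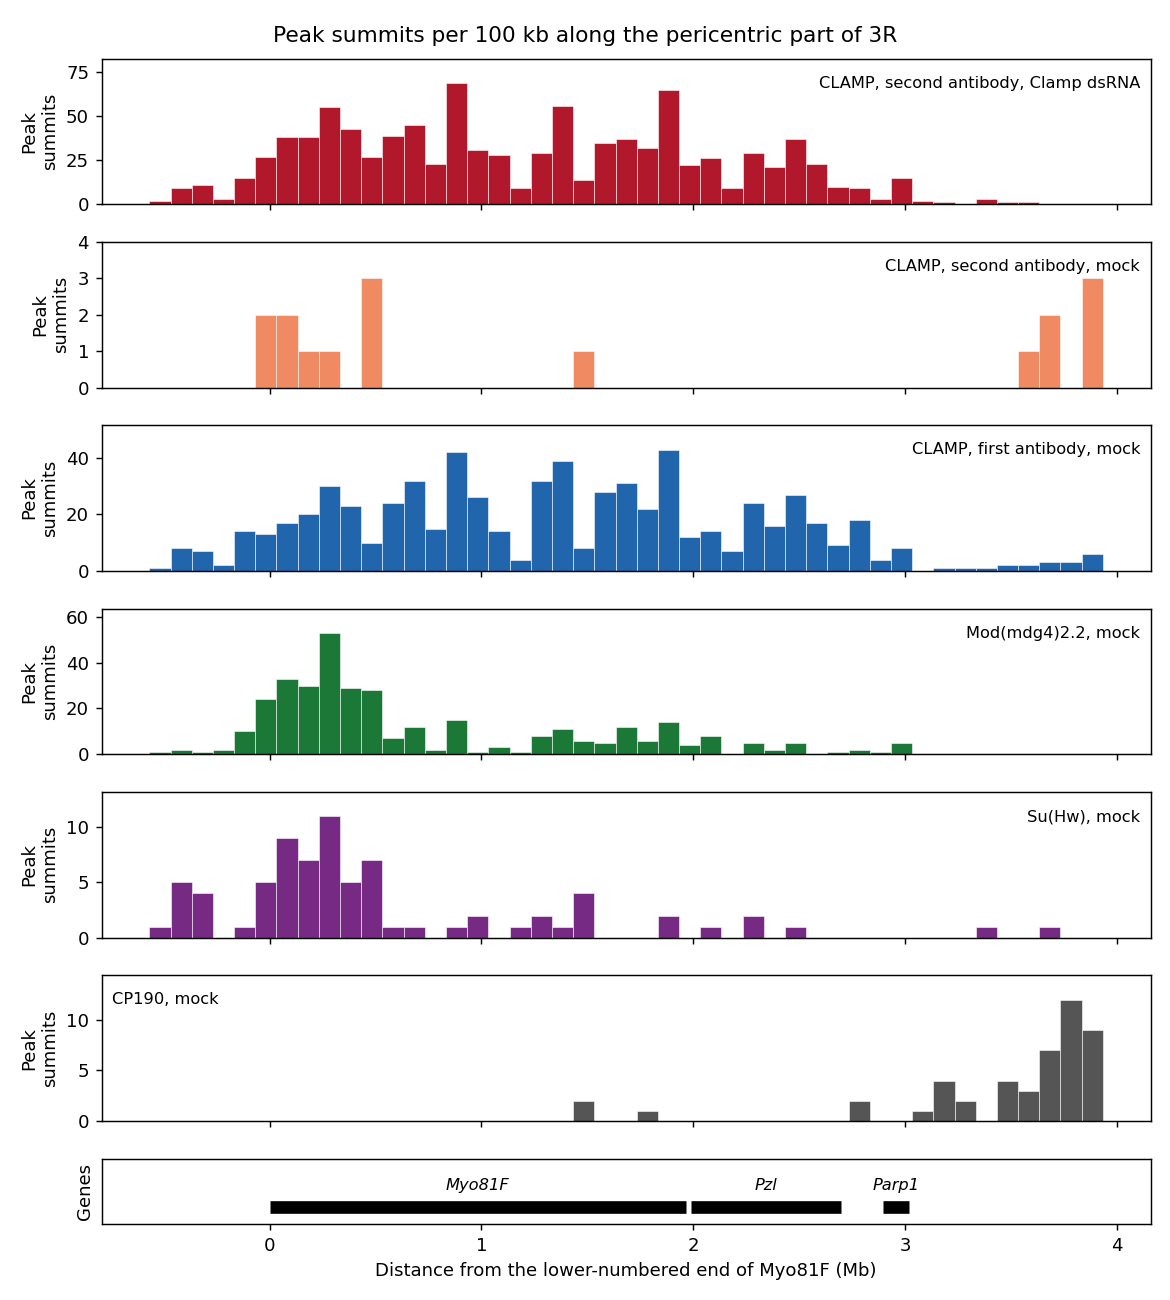
Number of peak summits per 100 kb (vertical axes) against the distance from the lower-numbered end of Myo81F in Mb (horizontal axis), with 1 panel per list and the spans of Myo81F, Pzl and Parp1 at the bottom. The dsRNA list and the first CLAMP antibody fill Myo81F and Pzl, Mod(mdg4)2.2 and Su(Hw) crowd into the first part of Myo81F, and CP190 appears mainly beyond Parp1.

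Along the 4.5 Mb the dsRNA list and the first CLAMP antibody had the same high and low places. In 100 kb bins, 41 of 45 held a summit of the dsRNA list and 44 of 45 one of the first antibody. The 3 fullest bins were the same in both lists. They were the bin from 1.4 to 1.5 Mb (69 dsRNA summits and 42 of the first antibody), the bin from 2.4 to 2.5 Mb (65 and 43) and the bin from 1.9 to 2 Mb (56 and 39). Over the 45 bins the rank correlation of the lists was 0.92, and over the 36 bins below 3.6 Mb, where most peaks lie, 0.89. The bins are neighbours on 1 arm and share the assembly and its repeats, so this is a description. Their longest stretches without a summit, up to the end of Parp1, nearly coincided. That of the dsRNA list ran 112 kb from 12073 to 124087, and that of the first antibody 112 kb from 11499 to 123561. The middle 80% of summits lay between 0.7 and 3.01 Mb in the dsRNA list and between 0.75 and 3.18 Mb for the first CLAMP antibody.

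Mod(mdg4)2.2 and Su(Hw) lay closer to the centromere than the dsRNA list and the first CLAMP antibody. The median summit position was 0.95 Mb for Mod(mdg4)2.2 and 0.87 Mb for Su(Hw), against 1.68 Mb for the dsRNA list and 1.92 Mb for the first CLAMP antibody. The window from 0.5 to 1.1 Mb held 197 Mod(mdg4)2.2 summits (56.4% of its 349) and 44 Su(Hw) summits (57.9% of 76). It held 23.0% of the dsRNA list and 16.6% of the first-antibody list. The 16 peaks of the second antibody in mock cells had a median position of 1.02 Mb, and 9 of them (56.2%) lay in the window. This window was chosen after the bin counts were seen. The fullest bin of both insulator proteins was the one from 0.8 to 0.9 Mb, with 53 Mod(mdg4)2.2 and 11 Su(Hw) summits. Over the 45 bins the rank correlation of Mod(mdg4)2.2 was still 0.85 with the dsRNA list and 0.74 with the first antibody. For Su(Hw) it was 0.48 and 0.35. Below 3.6 Mb these values were 0.75 and 0.56 for Mod(mdg4)2.2 and 0.36 and 0.17 for Su(Hw). The last Mod(mdg4)2.2 peak of the 4.5 Mb ended at 3528196, inside Parp1, and the next on the arm began at 4659072.

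CP190 had the opposite placement. Its median summit position was 4.25 Mb, and 42 of its 47 peaks lay beyond Parp1, where its density was 46.0 per Mb (33.2 to 62.2). That is an average, since its 3 fullest 100 kb bins lay from 4.2 to 4.5 Mb, with 7, 12 and 9 summits. Up to the end of Parp1 it had 5 peaks, 3 of them in Myo81F, and Pzl had none. A count of 0 in Pzl has an upper limit of 5.20 peaks per Mb. Over the 45 bins the rank correlation with CP190 was -0.63 for the dsRNA list and -0.49 for the first antibody. Below 3.6 Mb it was -0.16 and -0.04.

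**Figure D2:**
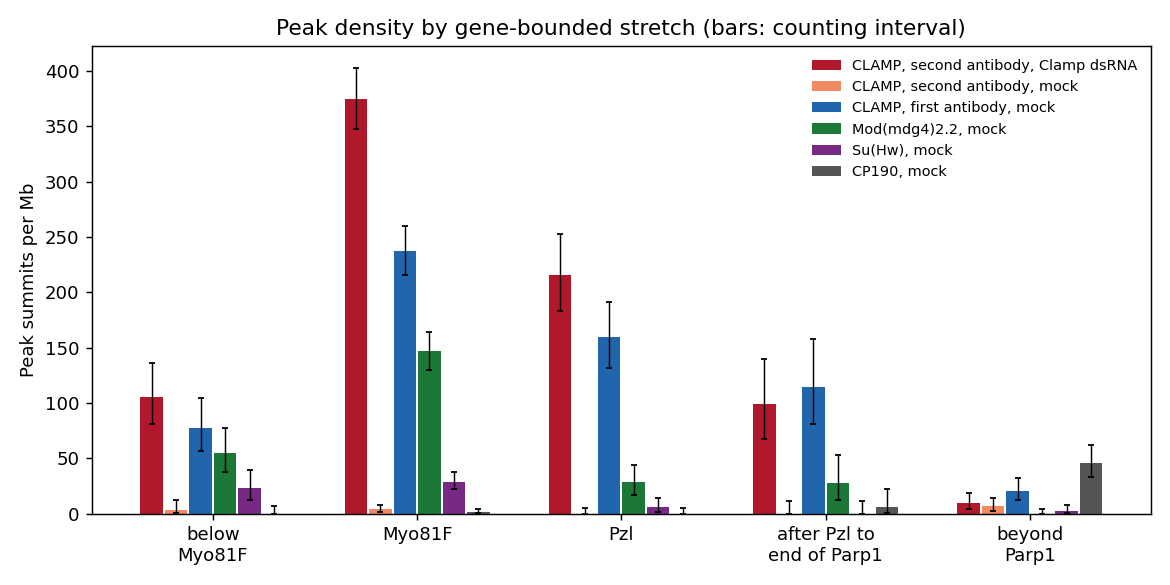
Peak summits per Mb (vertical axis) for the 6 lists in 5 stretches bounded by genes, from the centromere side on the left to 4.5 Mb on the right, with exact Poisson 95% intervals as error bars. The dsRNA list reaches 374 per Mb in Myo81F, and beyond Parp1 CP190, at 46.0 per Mb, is the densest list.

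Myo81F held most of the peaks of 4 lists. Its span held 736 dsRNA peaks (37.4 per 100 kb), 466 of the first CLAMP antibody (23.7), 288 of Mod(mdg4)2.2 (14.7) and 57 of Su(Hw) (2.90). Peaks of the dsRNA list covered 19.3% of its bases, those of the first antibody 23.4% and those of Mod(mdg4)2.2 9.58%. Pzl held 153 dsRNA peaks (21.6 per 100 kb), 113 of the first antibody (15.9), 20 of Mod(mdg4)2.2 (2.82) and 4 of Su(Hw) (0.564). The second antibody in mock cells had 8 peaks in Myo81F and none in Pzl. Parp1 held 16 dsRNA peaks (12.7 per 100 kb), 12 of the first antibody (9.55), 5 of Mod(mdg4)2.2 (3.98) and none of Su(Hw) or CP190. The gene spok held 5 dsRNA and 4 first-antibody peaks. In all, 91.9% of dsRNA summits, 89.6% of first-antibody summits and 89.7% of Mod(mdg4)2.2 summits lay within a gene span, while 70.4% of the bases do. For CP190 it was 46.8%. The annotation used gives no exons, so introns could not be told from exons.

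Beyond Parp1 the CLAMP peaks of mock cells lay at CP190. The first antibody had 19 peaks there, and 17 of them overlapped CP190, against 3 of its 661 peaks up to the end of Parp1. Over all arms 49.4% of first-antibody peaks overlapped CP190. The strongest were 2 neighbouring peaks at CG31522 with 6.41-fold enrichment, at a CP190 peak, and 4.83-fold, without one. Fold enrichment is ChIP signal over background at the summit, as the peak caller gave it. The dsRNA list had 9 peaks beyond Parp1, none of which overlapped a peak of any other list. Mod(mdg4)2.2 had none there and Su(Hw) 2. Of these Su(Hw) peaks, 1 lay at cpx, which encodes complexin, a regulator of neurotransmitter release, with 4.13-fold enrichment. It overlapped CP190 and both mock CLAMP lists. The 5 genes over 20 kb with the fewest peaks were all the genes of that length beyond Parp1. The other genes over 20 kb were Myo81F, Pzl, spok and Parp1. The counts are not scaled by length, so this placement does not show fewer peaks per base. CG34357, which runs past 4.5 Mb, had no peak in the part examined, CG41099 had 1, CG42402 had 4, and CG31522 and cpx had 5 each over all lists. Tim17b, a gene of mitochondrial protein import, had a first-antibody summit within its span and a CP190 summit 8 bases outside it, in a peak of 5.12-fold from 3734535 to 3735161. Gfat1, whose enzyme starts hexosamine synthesis, had no summit of any list.

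CP190 reached its largest folds here at 3 places, with 15.9-fold at the pseudogene CR33294, 14.8-fold in a peak 19860 bases from spok and 14.3-fold at CG42402. Of the 47 CP190 summits, 29 lay within 500 bases of a gene end (61.7%, interval 47.4 to 74.2), against 56.5% (55.5 to 57.5) elsewhere and 56.5% over all arms. These intervals overlap. Genes with a CP190 summit inside them or within 500 bases include aux, which encodes auxilin, eIF3a, a translation initiation factor subunit, Fip1, beta-Man and srl. For Su(Hw) 2 summits (2.63%, all arms 18%) and for the second antibody in mock cells 3 (18.8%, all arms 36.6%) lay that close. For the dsRNA list 7 summits (0.706%, all arms 5.2%) lay that close to a gene end, for the first antibody 17 (2.50%, all arms 32.2%) and for Mod(mdg4)2.2 4 (1.146%, all arms 23.4%). Elsewhere the shares of these 3 lists were 11.95%, 36.5% and 29.1%. Few gene ends exist in the stretch where these peaks lie, and the part of gene density in the difference was not tested.

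Peak widths, set against the rest of the arms, varied by list. The dsRNA peaks had a median width of 259 bases here (quartiles 176 and 464) and 185 elsewhere (150 and 252). Peaks under 200 bases made up 33.7% of the dsRNA list here and 57.5% elsewhere. The first antibody had a median of 513.5 bases here and 510 elsewhere, but a wider upper quartile, 856 against 768. Mod(mdg4)2.2 had a median of 417 against 439 bases, again with a larger upper quartile here, 710 against 554.5. Su(Hw) peaks were narrower here, 315.5 against 496 bases. CP190 peaks had medians of 795 and 846.5 bases, and the second antibody in mock cells had 564.5 and 785. Peaks over 2000 bases numbered 35 in the dsRNA list here and 3 elsewhere, 11 and 2 for Mod(mdg4)2.2, and 52 and 87 for the first antibody. Widths depend on the caller and on depth, so they are compared only within a list.

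**Figure D3:**
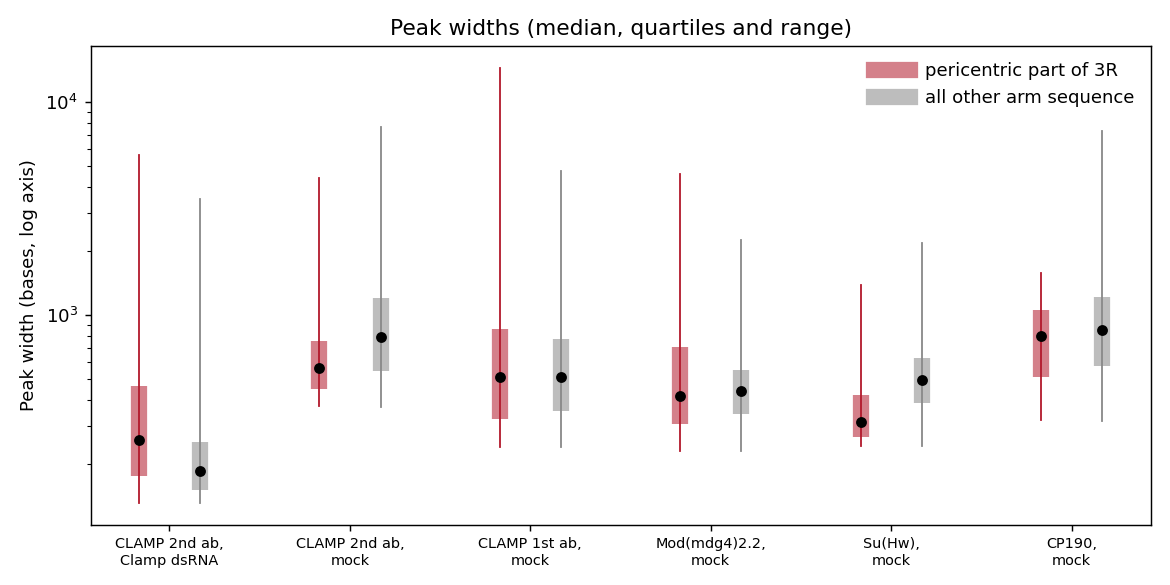
Peak width in bases on a log axis for each list, in the pericentric part of 3R (red) and in all other arm sequence (grey); dots are medians, thick bars quartiles and thin lines the range. The dsRNA peaks are wider here (median 259 against 185 bases) and the Su(Hw) peaks narrower (315.5 against 496).

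The widest peaks of the dsRNA list, the first antibody and Mod(mdg4)2.2 lay in Myo81F. The first antibody had a peak of 14471 bases from 867408 to 881878, which contained or touched 12 dsRNA and 11 Mod(mdg4)2.2 peaks and 2 Su(Hw) peaks. A second one covered 13065 bases from 1020501 to 1033565, with 8 dsRNA, 11 Mod(mdg4)2.2 and 3 Su(Hw) peaks. The widest dsRNA peak had 5645 bases from 644473 to 650117, and the widest Mod(mdg4)2.2 peak 4593 bases from 875498 to 880090, within the widest first-antibody peak.

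Enrichment here was low for the mock lists and slightly higher than elsewhere for the dsRNA list. The median fold of the dsRNA list was 2.57 here and 2.34 elsewhere. For the first antibody it was 2.40 against 3.18, for the second in mock cells 2.25 against 3.65, for Mod(mdg4)2.2 2.54 against 4.09, for Su(Hw) 2.77 against 7.27 and for CP190 4.32 against 5.60. When each list was ranked by -log10 q over all arms, the 50% best-ranked peaks included 545 of the 992 dsRNA peaks here (54.9%). They included 55 of the 680 first-antibody peaks (8.09%), 14 of the 349 Mod(mdg4)2.2 peaks (4.01%), 18 of the 47 CP190 peaks (38.3%) and none of the 76 Su(Hw) peaks. Most first-antibody and Mod(mdg4)2.2 peaks here thus ranked in the weaker 50% of their lists.

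Most peaks of the 3 abundant lists shared their place with another of them. A first-antibody peak lay at 744 of the 992 dsRNA peaks (75%, interval 72.2 to 77.6), against 36.9% (33.3 to 40.7) elsewhere and 59.8% over all arms. In the other direction a dsRNA peak lay at 513 of the 680 first-antibody peaks (75.4%, 72.1 to 78.5), against 4.46% elsewhere (all arms 13.4%). Mod(mdg4)2.2 lay at 289 dsRNA peaks (29.1%, 26.4 to 32.0), against 15.9% (13.3 to 18.9) elsewhere (all arms 23.8%), and at 209 first-antibody peaks (30.7%, 27.4 to 34.3), against 4.84% elsewhere (all arms 8.12%). Most Mod(mdg4)2.2 peaks here lay at peaks of these CLAMP lists, 316 of 349 at a dsRNA peak (90.5%, 87.0 to 93.2) and 329 at a first-antibody peak (94.3%, 91.3 to 96.3). Elsewhere these shares were 6.87% and 17.1%, and over all arms 23.7% and 32.6%. The shares depended on the rule. With summits within 250 bases, 58.2% of Mod(mdg4)2.2 peaks lay at a dsRNA peak and 41.5% at a first-antibody peak, and 44.3% of dsRNA peaks lay at a first-antibody peak. With the 50% best-ranked peaks alone, 545 dsRNA, 55 first-antibody and 14 Mod(mdg4)2.2 peaks remained here. Then 20% of dsRNA peaks lay at a first-antibody peak and 3.85% at Mod(mdg4)2.2, and 16.4% of first-antibody peaks lay at Mod(mdg4)2.2. Few partner peaks remained for these shares to count. In the other direction 90.9% of first-antibody peaks lay at a dsRNA peak. Of Mod(mdg4)2.2 peaks, 100% lay at a dsRNA peak and 85.7% at a first-antibody peak. The dsRNA and first-antibody lists cover 10.3% and 12.9% of the bases here, and 0.125% and 2.32% elsewhere. The part of coverage in the difference of overlap was not tested.

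**Figure D4:**
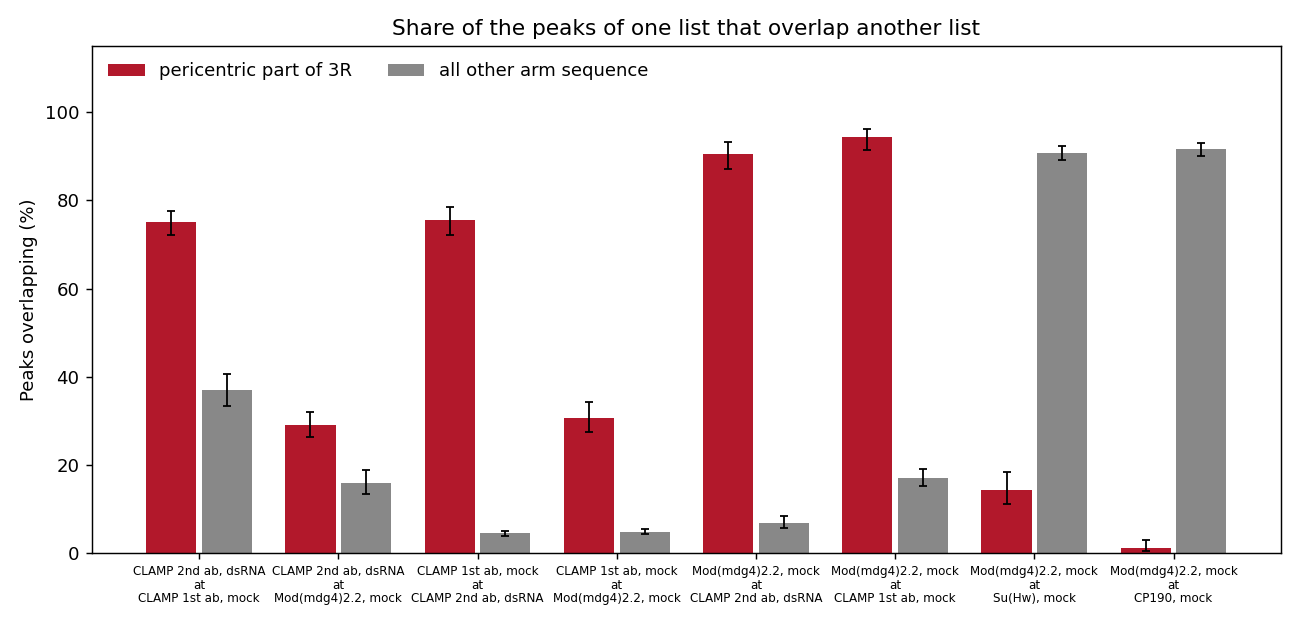
Percent of the peaks of 1 list that share at least 1 base with a peak of another (vertical axis), in the pericentric part of 3R (red) and in all other arm sequence (grey), with 95% Wilson intervals as error bars. Mod(mdg4)2.2 overlaps both CLAMP lists in over 90% of its peaks here and Su(Hw) and CP190 in over 90% of its peaks elsewhere.

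Few Mod(mdg4)2.2 peaks here lay at a called peak of its usual partners. Of its 349 peaks here, 50 lay at Su(Hw) (14.3%, interval 11.04 to 18.4), against 90.8% (89.2 to 92.2) elsewhere and 75.4% over all arms. At CP190 lay 4 of them (1.146%, 0.447 to 2.91), against 91.7% (90.1 to 93.0) elsewhere and 73.4% over all arms. Up to the end of Parp1, where all 349 lay, only 74 Su(Hw) and 5 CP190 peaks were called, which limits both shares. The part of these low counts in the shares was not tested. With summits within 250 bases, 7.45% lay at Su(Hw). With the 50% best-ranked peaks none of 14 did, but no Su(Hw) peak remained here. That setting therefore cannot show whether they meet. The few Su(Hw) peaks, in turn, lay mostly at the other lists. Of 76, 63 lay at a dsRNA peak (82.9%, all arms 2.9%), 67 at the first antibody (88.2%, all arms 9.63%) and 53 at Mod(mdg4)2.2 (69.7%, all arms 35.4%), while 4 lay at CP190 (5.26%, all arms 76%) and 7 at the second antibody in mock cells (9.21%, all arms 7.27%). Elsewhere 1.22%, 7.98%, 34.7%, 77.5% and 7.23% of Su(Hw) peaks lay at these lists.

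The dsRNA list and the first antibody met Su(Hw) about as often here as elsewhere, and CP190 in a smaller share of peaks. Su(Hw) lay at 64 dsRNA peaks (6.45%, interval 5.08 to 8.15), against 8.02% (6.18 to 10.3) elsewhere and 7.08% over all arms. It lay at 48 first-antibody peaks (7.06%, 5.37 to 9.23), against 6.16% (5.51 to 6.89) elsewhere and 6.28% over all arms. For both lists the intervals here and elsewhere overlap. Of the 16 peaks of the second antibody in mock cells, 4 lay at Su(Hw) (25%, 10.2 to 49.5), against 6.63% (5.89 to 7.46) elsewhere and 6.71% over all arms. CP190 lay at 6 dsRNA peaks (0.605%, 0.277 to 1.31), against 13.0% elsewhere (all arms 5.57%), and at 20 first-antibody peaks (2.94%, 1.91 to 4.499), against 56.1% elsewhere (all arms 49.4%). The second antibody in mock cells lay at 14 first-antibody peaks (2.06%, all arms 65.3%) and 13 Mod(mdg4)2.2 peaks (3.72%, all arms 8.55%). Elsewhere it lay at 74.4% and 9.76% of them. Of the 47 CP190 peaks, 20 lay at the first antibody (42.6%, 29.5 to 56.7; all arms 26.8%) and 7 at the second in mock cells (14.9%, 7.41 to 27.7; all arms 24.3%). A dsRNA peak lay at 4 (8.51%, all arms 0.837%), Su(Hw) at 3 (6.38%, all arms 28.2%) and Mod(mdg4)2.2 at 3 (6.38%, all arms 12.8%). These shares mix the parts on either side of the end of Parp1. Of the 5 CP190 peaks up to it, 4 lay at a dsRNA peak, 3 at Mod(mdg4)2.2 and 2 at Su(Hw). Of the 42 beyond it, 1 lay at Su(Hw) and none at the dsRNA list or Mod(mdg4)2.2, which has no peak there.

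The share of dsRNA and first-antibody peaks at Mod(mdg4)2.2 was highest between 0.5 and 1 Mb, and that stretch held 134 of the 289 shared dsRNA peaks and 77 of the 209 shared first-antibody peaks. Below 0.5 Mb it lay at 32.5% of 40 dsRNA peaks and at 46.9% of 32 first-antibody peaks. In the stretch from 0.5 to 1 Mb it lay at 66.7% of 201 dsRNA peaks and at 74.8% of 103 first-antibody peaks. In the next 500 kb the shares were 28.6% of 203 and 30.1% of 123. From 1.5 to 3.5 Mb they stayed between 7.32% and 21.9% for the dsRNA list and between 10.7% and 27.3% for the first antibody. The share of dsRNA peaks at the first antibody lay between 47.6% and 83.1% in the 500 kb stretches below 4 Mb, and was 0 of 2 peaks beyond.

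**Figure D5:**
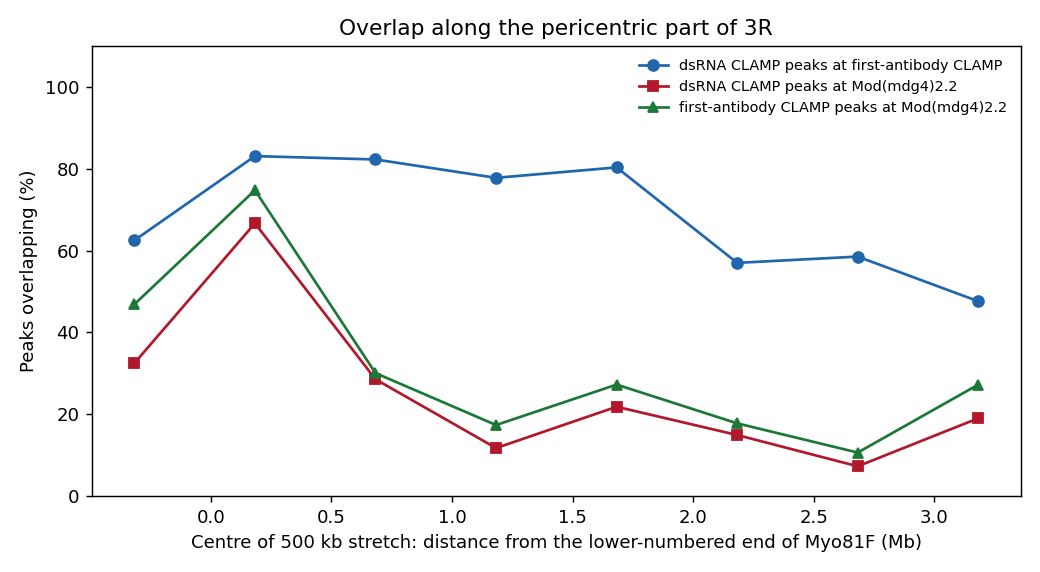
Percent of peaks overlapping another list (vertical axis) in successive 500 kb stretches, plotted at the distance of each stretch's centre from the lower-numbered end of Myo81F in Mb; the last 500 kb are not drawn because they hold 2 dsRNA peaks. Overlap with Mod(mdg4)2.2 is highest in the second stretch (66.7% and 74.8%), while the overlap of dsRNA peaks with the first antibody lies between 47.6% and 83.1%.

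Shared peaks were wider than unshared ones. The dsRNA peaks at Mod(mdg4)2.2 had a median width of 537 bases, against 212 for those without it, and those at the first antibody 322 against 179.5. First-antibody peaks at Mod(mdg4)2.2 had a median of 956 against 423 bases. Fold enrichment differed less, with medians of 2.79 and 2.52 for dsRNA peaks with and without Mod(mdg4)2.2, and 2.66 and 2.31 for first-antibody peaks. With dsRNA peaks split by fold into 4 classes of 248, Mod(mdg4)2.2 lay at 24.6%, 18.1%, 21.8% and 52.0% of the peaks, in order of rising fold. The median width of these classes was 190.5, 227, 290 and 523 bases. A wider peak overlaps more readily, and the part of width in these shares was not tested.

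When overlapping peaks of the dsRNA list, the first antibody and Mod(mdg4)2.2 were merged, the 4.5 Mb held 880 sites. All 3 lists were present at 182 of them (20.7%), against 83 of 6244 sites elsewhere (1.33%) and 3.72% of all sites on the arms. There were 117 such sites with summits within 250 bases, and 9 when only the 50% best-ranked peaks were used. The dsRNA list and the first antibody without Mod(mdg4)2.2 made up 283 sites (32.2%), the dsRNA list alone 236 (26.8%) and the first antibody alone 150 (17.05%). Mod(mdg4)2.2 alone made up 10, Mod(mdg4)2.2 with the first antibody 12, and with the dsRNA list 7. The 182 three-list sites took up 38.5% of the dsRNA peaks, 31.3% of the first-antibody peaks and 91.7% of the Mod(mdg4)2.2 peaks.

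Three-list sites were broad and often compound. Their median width was 1340 bases (quartiles 881 and 2384), and 10 were wider than 5 kb. In 153 of the 182 there was a single first-antibody peak, beside up to 12 dsRNA and up to 11 Mod(mdg4)2.2 peaks, and 62 sites (34.1%) had exactly 1 peak of each list. At those 62 sites the summits lay a median of 118 bases apart between the dsRNA list and the first antibody, 99 between the dsRNA list and Mod(mdg4)2.2 and 70 between the first antibody and Mod(mdg4)2.2. Over all 182 sites, with the strongest peak of each list, these medians were 203.5, 209.5 and 248.5 bases. Su(Hw) lay at 37 of the 182 sites (20.3%, interval 15.1 to 26.8; 26% of three-list sites over all arms). CP190 lay at 1 (0.549%, all arms 6.42%) and the second antibody in mock cells at 9 (4.95%, all arms 11.3%). Of the 83 three-list sites elsewhere, 32 had Su(Hw), 16 CP190 and 21 the second antibody in mock cells. At the 283 sites of the dsRNA list and the first antibody without Mod(mdg4)2.2, Su(Hw) lay at 8 (2.83%, 1.44 to 5.48). Those sites were narrower, with a median of 554 bases, and the part of width in this difference was not tested.

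Genes held 163 of the 182 three-list sites, and there were 4 such genes, 4.598% of the 87 (12 of 17673 genes, 0.0679%, over all arms). Myo81F held 147 (7.48 per 100 kb), Pzl 13 (1.83), Parp1 3 (2.39) and the pseudogene CR41571, which lies inside Myo81F, shared 1 of these sites. By position, 71 of the sites (39.0%) lay between 0.5 and 1 Mb, 32 between 1 and 1.5 Mb, 16 between 1.5 and 2 Mb, 33 between 2 and 2.5 Mb and none beyond 4 Mb.

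The three-list sites with the strongest dsRNA peaks lay in Myo81F, except 1 in Pzl. The strongest was the 13065-base site described above, whose best peaks had 5.16-fold enrichment for the dsRNA list, 2.74-fold for the first antibody and 3.14-fold for Mod(mdg4)2.2. A site from 627573 to 631148 had 4.89-, 2.52- and 2.44-fold enrichment for the same lists, and 1 from 846297 to 850735 had 4.85-, 3.03- and 3.15-fold. Each of these 3 sites also had a Su(Hw) peak. The site in Pzl, from 3000887 to 3001932, had 1 peak of each list at 4.72-, 2.66- and 2.32-fold and no Su(Hw) peak. The site that covers CR41571, from 721014 to 723573, had 4.598-fold dsRNA, 2.69-fold first-antibody and 4.02-fold Mod(mdg4)2.2 enrichment. Its Mod(mdg4)2.2 peak was the second strongest of that list here. The other 3 of the 8 strongest, at 804339, 860222 and 933405, had dsRNA folds from 4.55 to 4.67. The strongest dsRNA peak of the 4.5 Mb was not a three-list site. It lay in Pzl from 3033441 to 3033743 with 5.53-fold enrichment, at a first-antibody peak and without Mod(mdg4)2.2.

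The strongest Mod(mdg4)2.2 peak here lay before Myo81F, from 266476 to 266933, with 4.04-fold enrichment, and another lay from 472446 to 473052 with 3.86-fold. Both overlapped the dsRNA list and the first antibody. Su(Hw) was strongest at 4.25-fold in Myo81F, from 2448694 to 2448984, where the dsRNA list, the first antibody and Mod(mdg4)2.2 also had a peak. Another, from 123863 to 124156 (4.11-fold), overlapped a dsRNA peak alone.

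The 16 mock peaks of the second antibody fell into groups on either side of Parp1. Up to the end of Parp1 there were 10, and all 10 overlapped a dsRNA peak of the same antibody and a first-antibody peak. Of these 10, 9 overlapped Mod(mdg4)2.2, 3 Su(Hw) and 1 CP190. Over all arms 2.43% of the mock peaks of this antibody overlapped a dsRNA peak, 80.3% a first-antibody peak, 3.6% a Mod(mdg4)2.2 peak, 6.71% a Su(Hw) peak and 57.8% a CP190 peak. Beyond Parp1 there were 6, near beta-Man and at cpx, lost, srl and CG31522, and none had a dsRNA or Mod(mdg4)2.2 peak while 5 lay at CP190. In the other direction 18 of the 992 dsRNA peaks (1.81%, interval 1.151 to 2.85) lay at a peak of that antibody in mock cells, against 15.3% (12.7 to 18.2) elsewhere and 7.2% over all arms. With summits within 250 bases it was 0.2016%, and with the 50% best-ranked peaks 1.101%. The lists of the dsRNA and mock cells for this antibody come from libraries that the labels number apart, so treatment and library set cannot be told apart.

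One place stood out among them. In Myo81F, from 2085023 to 2089425, the second antibody in mock cells had a 4403-base peak with 8.63-fold enrichment, the only one of its 10 peaks up to Parp1 above 2.67-fold. The first antibody had a 4170-base peak there with 4.76-fold enrichment. The same interval held 6 dsRNA, 3 Mod(mdg4)2.2, 4 Su(Hw) and 2 CP190 peaks, so that every list was present. The CP190 peaks had 2.02- and 2.82-fold enrichment.

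No peak of any list crossed the 4.5 Mb limit. The last dsRNA peak inside it ended at 4162703 (2.34-fold) and the first outside began at 4541978 (3.93-fold). For the first antibody the last inside ended at 4478990 (1.58-fold) and the first outside began at 4649292 (2.68-fold). For CP190 the last inside ended at 4485398 (2.74-fold) and the first outside began at 4559086 (4.45-fold).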

How the data were processed

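The 6 peak lists, from 24 ChIP-seq and input libraries in 8 groups, were used as the authors deposited them. Row names carry the word pooled, so each list stands for a group. The submitters' processing notes, per the labels, name MACS2 2.1.0.20150731, SAMtools 1.2, Picard, Bowtie2 2.2.9 and cutadapt 1.8.1, with build dm6. Their settings, the peak threshold and the handling of repeat reads are not stated in what was used. The deposited fold enrichment is a ratio over background, and the deposited score is 10 times the deposited -log10 q, rounded down.

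Analysis used Python 3.11.15, pandas 2.3.3 and scipy 1.17.1, on the chromosome arms alone. Arm lengths ran to the last annotated gene or peak. Peaks overlapped where 1 base or more was shared. Gene spans came from a RefSeq table of the same assembly (17673 genes) without strand. Promoter sequences are not used here. Overlap and merging were checked on simulated intervals. The genes and sites named were the genes with most three-list sites, the 8 three-list sites of largest dsRNA fold, the 3 strongest peaks per list, the second-antibody mock peaks, the 5 genes over 20 kb with fewest peaks, and Parp1, Myo81F, Pzl, Tim17b and Gfat1 (5 other listed genes lie on 3L). The widest peaks, the genes with CP190 and spok were chosen after their values were seen. Members and lists were chosen with earlier results of these data known. Alternatives changed the threshold, the 4.5 Mb limit, the overlap rule, the gene assignment and the bin size.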

Additional observations from a re-analysis of the deposited data

How the results depend on the processing

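Of 66 alternative values, 27 stayed close to the reported value and 39 moved, none with a test. Close means within the 95% interval of a share or a median width, or within 1.5 times a count. Bin counts at other bin sizes have other totals. When only the 50% best-ranked peaks were kept, the counts were 545 (dsRNA), 2 (second antibody, mock), 55 (first antibody), 14 (Mod(mdg4)2.2), 0 (Su(Hw)) and 18 (CP190), and the median widths 383, 3024.5, 1863, 1143.5 and 1029 bases, with none for Su(Hw). The shares then became 20% of dsRNA peaks at the first antibody, 3.85% at Mod(mdg4)2.2 and 1.101% at the mock peaks of the same antibody. They became 85.7% of Mod(mdg4)2.2 peaks at the first antibody, 100% at dsRNA peaks and 0 at Su(Hw), and 90.9% and 16.4% of first-antibody peaks at dsRNA and Mod(mdg4)2.2. The 0 at Su(Hw) was fixed in advance, since no Su(Hw) peak remained here. Three-list sites numbered 9, and Myo81F was the only gene that held any of them. For the moved values the cause was not tested. With an end below 4.0 Mb, 10 second-antibody mock peaks and 12 CP190 peaks remained, and the CP190 median width was 550 bases.

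With at least 50% of the shorter peak shared, the shares were 67.4% and 24.4% of dsRNA peaks at the first antibody and Mod(mdg4)2.2, 86.0% of Mod(mdg4)2.2 peaks at dsRNA peaks and 69.0% of first-antibody peaks at dsRNA peaks. With summits within 250 bases, they were 44.3%, 21.3% and 0.2016% of dsRNA peaks at the first antibody, Mod(mdg4)2.2 and the mock peaks of the same antibody. They were 41.5%, 58.2% and 7.45% of Mod(mdg4)2.2 peaks at the first antibody, dsRNA and Su(Hw), and 61.0% and 20.6% of first-antibody peaks at dsRNA and Mod(mdg4)2.2, with 117 three-list sites. Bins with a dsRNA summit numbered 73 of 90 at 50 kb and 21 of 23 at 200 kb. With 1 base of the dsRNA peak in the gene, CR12798 joined the genes with three-list sites, 5 in all. No replicate could be left out, since each list is pooled. No paired analysis was possible because no list holds the libraries of a group separately. Unknown depth limits every statement on missing peaks.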
